A study of Mus musculus with 16 samples.

Results

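Integrins and laminins were described across 4 kinds of RNA library from the neonatal mouse cochlea. The members were chosen by gene symbol alone, as every integrin alpha and beta subunit gene and every laminin alpha, beta and gamma chain gene in the data. This gave 38 entries of the 47729 genes with values: 19 integrin alpha, 8 integrin beta, 5 laminin alpha, 3 laminin beta and 3 laminin gamma. Itgam was listed under 2 identifiers, so the 38 entries carried 37 symbols. Expression is given as CPM, the reads counted on a gene in a library whose reads are scaled to sum to 1000000. Of the entries, 34 reached 0.5 CPM in every replicate of 1 or more groups and were tested. The 4 entries that were not tested were Itgad, Itgax and both entries for Itgam.

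Laminins are large secreted trimers of an alpha, a beta and a gamma chain, and they build the basement membranes that lie under epithelia and around nerves, muscle and vessels. Integrins are cell surface receptors made of an alpha and a beta subunit, and they bind laminins, other matrix proteins or counter-receptors on other cells and couple them to the cytoskeleton. In the cochlea, the sensory epithelium rests on a basement membrane, while vessels, mesenchyme and nerve fibers below it have basement membranes or matrix of their own.

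RNA came from cochleae at postnatal day 4, from which the lateral wall, the spiral ganglion and Reissner's membrane had been removed. Control mice were GLAST CreERT/+; Rpl22 HA/+ and damaged mice were Lgr5 DTR-EGFP/+; GLAST CreERT/+; Rpl22 HA/+, so both carried GLAST-driven inducible Cre and a Cre-dependent HA tag on the ribosomal protein Rpl22. The diphtheria toxin receptor (DTR) sits in the Lgr5 locus, which limits the toxin's direct targets to Lgr5-expressing cells. The study's results describe diphtheria toxin and tamoxifen for both genotypes at postnatal day 1, whereas the labels give no treatment for control and DTR treatment for damaged samples. Each replicate was a pool of 8 cochleae from 4 mice. Of its homogenate, 5% gave the input library (whole tissue RNA) and 95% gave the immunoprecipitated (IP) library. The IP is meant to enrich RNA on tagged ribosomes of GLAST-Cre+ cells. Both genotypes thus gave 4 input and 4 IP libraries. Reads counted on genes ranged from 35517482 to 41966310 in control input, 30586938 to 34362992 in control IP, 32764633 to 39158473 in DTR input and 28089836 to 31119045 in DTR IP.

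The labels were first checked with Lgr5, the gene that carries the DTR allele. Lgr5 was 63.3 ± 3.03 CPM (SD, n = 4) in control input and 15.9 ± 3.69 in DTR input, and the 2 ranges were far apart (adjusted p = 2.2e-08). Control IP had 36.6 ± 3.99 CPM and DTR IP 9.38 ± 1.40, a log2 fold change (LFC) of -1.93 (adjusted p = 3.5e-08). Slc1a3, which encodes GLAST itself, was not higher in IP: it was 281 ± 14.3 CPM in control input and 236 ± 21.9 in control IP (LFC -0.20, adjusted p = 0.10, and 0.036 without quantile normalization, where the LFC was -0.25). Throughout, LFC is on the scale of log2(quantile-normalized CPM + 0.5), which understates changes of low genes, while CPM per library are as deposited. In these bulk samples, fewer cells of a type and less RNA per cell cannot be told apart.

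Per kilobase of exon, the most abundant members in control input were receptor subunits. Itgb1, the beta subunit shared by most laminin and collagen receptors, led at 154 ± 8.51 CPM per kb, followed by Itga8 at 97.8 ± 12.9 and Itgb5 at 71.5 CPM per kb. Itga8 pairs with Itgb1, Itgb5 pairs with Itgav, and both of the resulting receptors recognize the RGD motif in matrix proteins. Lamc1 (63.5 CPM per kb) and Lamb1 (54.6) were the most abundant laminin chains, and among the alpha chains Lama4 led at 13.9. Itgb1, Itga8 and Itgb5 did not overlap with each other over the 4 libraries, whereas Itgb5 and Lamc1 did, as did Lamc1 and Lamb1.

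In control IP, Itgb1 (75.0 CPM per kb), Itga8 (56.8) and Itgb5 (42.6) were again the first 3, and Lamc1 (20.4) came next. The mean of Lamb2 (16.2 ± 3.52) stood above that of Lamb1 (13.9 ± 2.56), with libraries that overlapped. Lama5 was the most abundant alpha chain, in place of Lama4. At the other end were the leukocyte subunits and 2 laminin alpha chains of specialized basement membranes. Itgae and Lama3 were at 0.102 and 0.0993 CPM per kb in control input, and Lama1, an alpha chain of embryonic basement membranes, was 0.258.

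**Figure D1:**
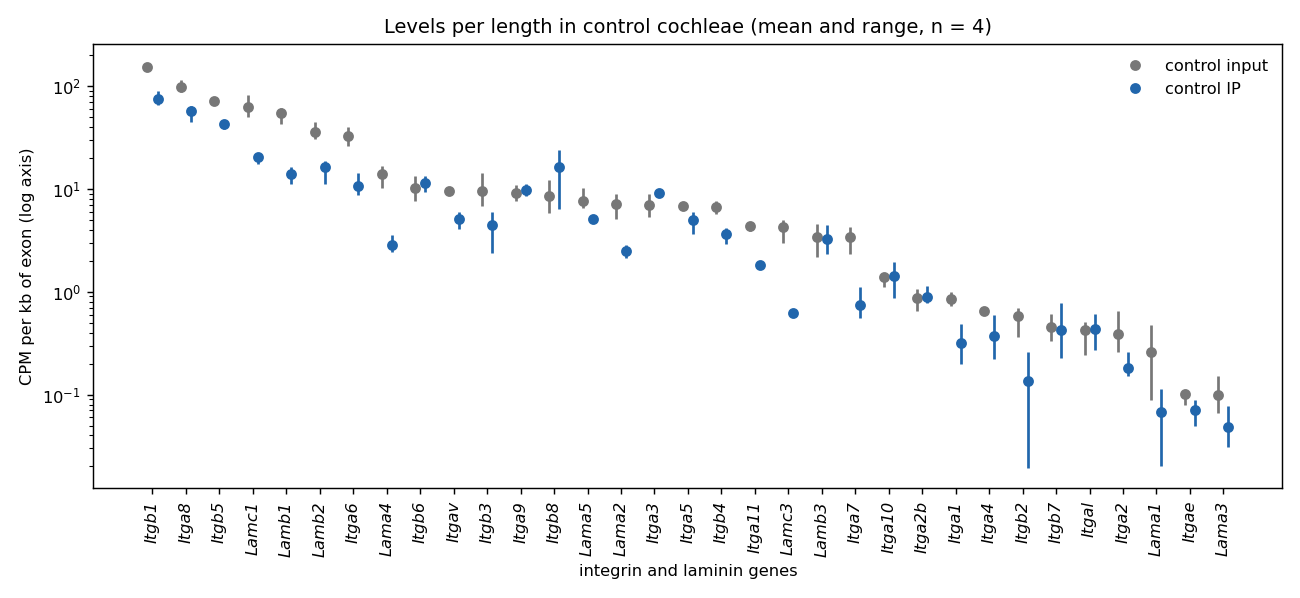
Mean CPM per kilobase of exon (log axis) of the integrin and laminin genes in control input (gray) and control IP (blue), with lines from the lowest to the highest of 4 libraries. Itgb1 leads in both at 154 and 75.0 CPM per kb, Lama4 falls well below its input level in IP, and Itgb8 lies above it.

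The balance of chains within the alpha and beta laminin classes is given as shares of the class's summed CPM per kb, without a test. In control input, Lama4, the alpha chain of vessel walls and mesenchyme, held 47.6% ± 2.46 of the alpha chains and Lama5, the main alpha chain of mature epithelial basement membranes, held 26.6% ± 5.02. In control IP, Lama5 held 48.5% ± 3.79 and Lama4 27.0% ± 2.69, and the 4 libraries of IP did not overlap with those of input for either chain. Lama2, the alpha chain of muscle and Schwann cell basement membranes, was close to a constant share, 24.6% ± 2.36 in input and 23.4% ± 0.824 in IP. Lamb3 held 3.63% ± 1.02 of the beta chains in control input and 9.86% ± 2.07 in control IP. These larger shares in IP came without higher levels. Lama5 was 87.7 ± 19.9 CPM in control input and 58.2 ± 3.14 in control IP, and Lamb3 22.4 ± 6.99 and 21.8 ± 6.21. After damage, Lamb3 held 3.46% ± 0.523 in DTR IP, with no overlap with control IP. In the damaged cochlea, Lama5 held 38.6% ± 7.12 in DTR input and 51.3% ± 5.06 in DTR IP and Lamb3 2.24% ± 0.661 and 3.46%, both with overlap. Lama4 held 39.95% ± 5.15 in DTR input, near the share of Lama5, and 23.4% ± 1.40 in DTR IP, without overlap. Lama2 held 20.6% ± 2.56 in DTR input and 24.35% ± 3.76 in DTR IP, with overlap.

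**Figure D2:**
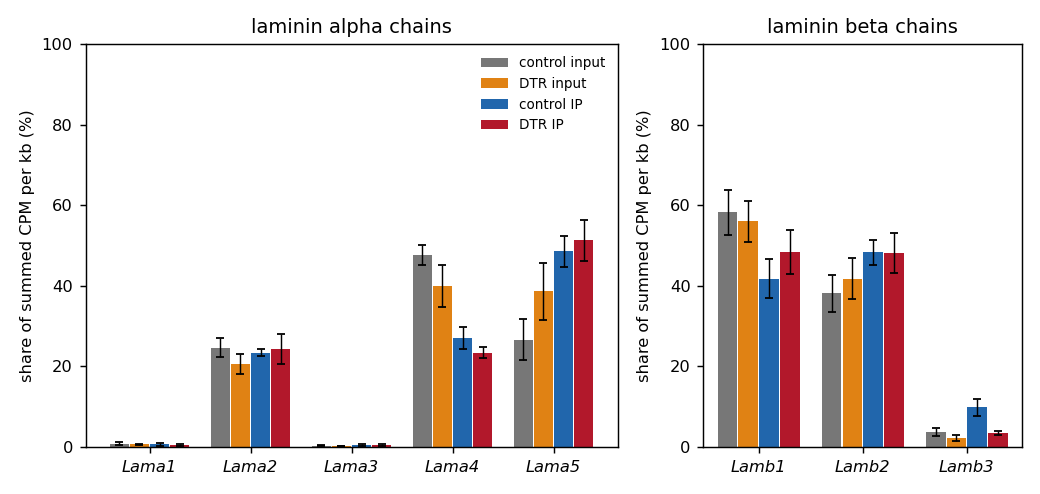
Share (%) of each chain in the summed CPM per kb of the laminin alpha and beta chains, as mean (bars) and SD (lines) of 4 libraries a group. Lama5 holds 26.6% of alpha chains in control input and 48.5% in control IP, and Lamb3 falls from 9.86% of beta chains in control IP to 3.46% in DTR IP.

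Control IP against control input asks which of these genes are higher or lower in IP than in the whole undamaged tissue. Most laminin chains and integrin subunits were lower in IP. Of the 34 members tested, 23 passed (67.6%), 2 higher (Itgb8 and Itga3) and 21 lower, against 39.9% of all tested genes (19.3% higher and 20.7% lower). Itgb2, Lama1 and Lama3 reached the filter on low values through input groups alone, where they are higher, and without the filter Itgb2 and Lama1 were still lower (adjusted p = 0.039 and 0.030). The median LFC of the members was -0.73, against -0.0012 over all tested genes. The study's criteria for enrichment in IP (LFC of at least 2, separation of the groups above 1.5 and a mean above the median gene) were applied here in both directions. Of the members, Lama4 alone met them, on the lower side, and 0.783% of genes met them in either direction (0.535% higher and 0.247% lower). Lamc3 (LFC -2.49, separation 3.72) and Itga7 (LFC -2.03, separation 2.26) passed on size and separation but not on the mean. After quantile normalization, on which all counts of non-overlapping members are based, the libraries of IP and input did not overlap for 20 members, against 39% of all genes.

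The laminin chains Lamc3, Lama4, Lamb1, Lamc1 and Lama2 were among the 8 members with the largest changes. Lama4 was 200, 169, 180 and 123 CPM in the control input libraries and 36.7, 42.9, 29.4 and 29.7 in control IP. The lowest input library thus stood far above the highest IP library, with an LFC of -2.23 ± 0.13 (SE, adjusted p = 4.9e-10), which is 4.69-fold lower. Lamc3, a gamma chain found outside the usual epithelial positions, was 30.7, 17.99, 29.1 and 25.4 CPM in input and 3.77, 3.96, 3.67 and 3.79 in IP. It had the largest LFC of all members, -2.49 ± 0.27 (adjusted p = 8.5e-07), with no overlap. Lamb1 and Lamc1, the beta and gamma chain shared by most laminins, had LFCs of -1.87 ± 0.13 (adjusted p = 2.8e-09) and -1.52 ± 0.15 (adjusted p = 2.6e-07). Lamb1 ranged from 427 to 615 CPM in input and from 112 to 163 in IP, and Lamc1 from 415 to 674 in input and from 144 to 180 in IP, both without overlap. Lama2 had an LFC of -1.50 ± 0.14 (adjusted p = 2.3e-07).

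Of the 3 laminin-binding alpha subunits, Itga6 and Itga7 were lower in IP and Itga3 was higher. Of the 4 collagen-binding ones, Itga1 and Itga11 were lower, while Itga2 (LFC -0.73, adjusted p = 0.078) and Itga10 (LFC 0.08, adjusted p = 0.77) did not pass. Itga6, which pairs with Itgb1 or Itgb4 to bind laminin, was 359, 317, 259 and 236 CPM in control input and 93.7, 128, 82.4 and 78.7 in control IP. The groups were well apart, with an LFC of -1.56 ± 0.14 (adjusted p = 1.2e-07). Itga7, a laminin receptor subunit of muscle and mural cells, had an LFC of -2.03 ± 0.23 (adjusted p = 1.5e-06), from 18.8 to 34.8 CPM in input and from 4.50 to 8.96 in IP. Its exons overlap those of Mettl7b on the opposite strand, and the strand setting of the counting is not given in the sources used here. Itga1 had an LFC of -1.35 ± 0.20 (adjusted p = 2.9e-05) and Itga11 of -1.18 ± 0.17 (adjusted p = 1.9e-05). The other abundant subunits moved less: Itgb1 had an LFC of -0.93, Itga8 of -0.65 and Itgb5 of -0.70, each lower in IP (adjusted p = 2.1e-06, 0.0023 and 0.00063).

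Itgb8 was the member with the highest LFC in IP. This beta subunit pairs with Itgav and is known for releasing active TGF-beta from its latent complex. It was 134, 109.7, 64.5 and 70.4 CPM in control input and 220, 264, 162 and 71.2 in control IP. Replicate 4 of IP lay inside the input range and the other 3 IP libraries lay above all input libraries, with an LFC of 0.86 ± 0.32 (adjusted p = 0.038). Itga3, a laminin receptor subunit of epithelia, was 30.4 to 51.2 CPM in input and 48.6 to 55.5 in IP, with an LFC of 0.41 ± 0.15 (adjusted p = 0.039). Both calls were narrow and were lost without the filter on low values (adjusted p = 0.11 for Itgb8 and 0.082 for Itga3). Leaving out control input replicate 3 or 4 or control IP replicate 1, 2 or 3 took the adjusted p of Itgb8 to 0.11, 0.10, 0.11, 0.14 and 0.065. For Itga3 it was 0.15, 0.077 and 0.077 without control input replicate 1, 2 or 4, and 0.070, 0.070 and 0.091 without control IP replicate 2, 3 or 4. Lama5 (LFC -0.56, adjusted p = 0.022) and Itga5 (LFC -0.49, adjusted p = 0.012), both lower in IP, also lost their call when a library was left out. Lama5 had an adjusted p of 0.094 without control input replicate 3 and 0.0505 and 0.0558 without control IP replicate 2 or 3, and Itga5 had 0.054 without control IP replicate 3.

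Itgb6 and Lamb3 did not pass between control IP and input. Itgb6, an epithelial beta subunit that pairs with Itgav, had an LFC of 0.20 (adjusted p = 0.43), and Lamb3 of -0.02 (adjusted p = 0.97). With the replicate number as a block, which pairs the input and IP of a pool, Itga2 passed too (adjusted p = 0.0059). The block also took the adjusted p of Lama3 (LFC -0.58) from 0.077 to 0.015, but this gene was tested only because of its higher level in input, and its adjusted p was 0.16 without the filter and 0.052 with the block and the length correction.

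**Figure D3:**
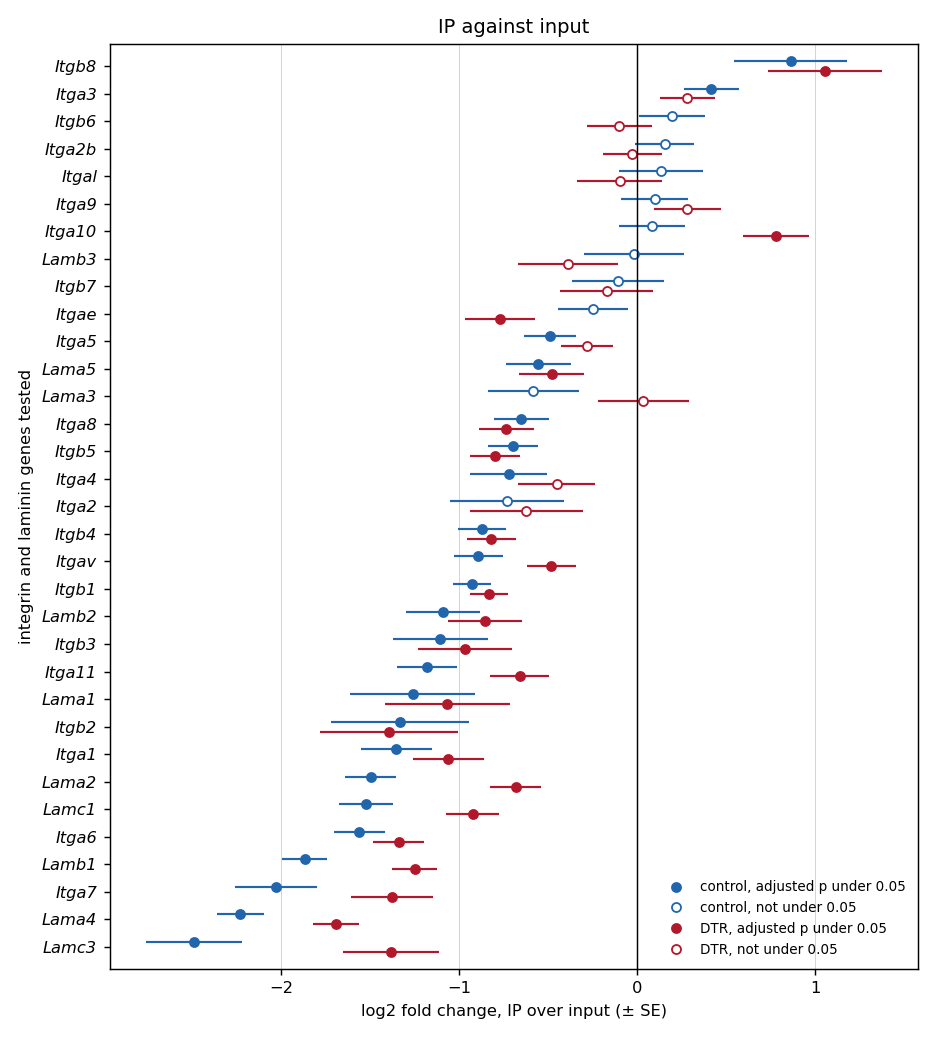
LFC of IP over input (± SE) for 33 of the 34 members tested, in control (blue) and DTR (red), with filled points for an adjusted p under 0.05. Most points lie left of 0, from -2.49 for Lamc3 in control, and Itgb8 lies to the right in both (0.86 and 1.05).

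In the damaged cochlea the same comparison gave a similar count. Between DTR IP and DTR input, 23 of 34 members passed, 2 higher (Itgb8 and Itga10) and 21 lower, against 39.2% of all tested genes (18.6% higher and 20.5% lower), and none met the enrichment criteria in either direction, against 0.636% of genes. Libraries did not overlap for 19 members, against 33.4% of all genes. The members' median LFC was -0.71, against -0.027 over all genes. Lama4 again had the smallest p, with 140, 145.9, 163 and 173 CPM in DTR input and 50.5, 44.8, 49.9 and 47.9 in DTR IP. The groups were far apart, with an LFC of -1.69 ± 0.13 (adjusted p = 1.8e-08). Lamb1 had an LFC of -1.25 ± 0.13 (adjusted p = 5.1e-07), Itga6 of -1.34 ± 0.14 (adjusted p = 9.8e-07), Itga7 of -1.38 ± 0.23 (adjusted p = 0.00012) and Lamc3 of -1.38 ± 0.27 (adjusted p = 0.00049).

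Itgb2, the beta subunit shared by the leukocyte integrins, had an LFC of -1.39 ± 0.39 (adjusted p = 0.0080). Its libraries overlapped, at 4.08, 1.65, 2.35 and 4.57 CPM in DTR input and 1.86, 0.463, 0.0663 and 1.68 in DTR IP. Without the filter its adjusted p was 0.032. Lama1 was also lower (LFC -1.07 ± 0.35, adjusted p = 0.022), but without DTR IP replicate 3 or 4 its adjusted p was 0.069 and 0.073, in edgeR it was 0.062 and without the filter 0.070. Itgb8 was 42.8, 46.7, 61.8 and 54.2 CPM in DTR input and 91.0, 134, 148 and 72.8 in DTR IP. Every IP library was higher, with an LFC of 1.05 ± 0.32 (adjusted p = 0.013, and 0.052 without DTR IP replicate 3). Itga10, a collagen receptor subunit of cartilage, was 5.67 to 8.86 CPM in input and 11.2 to 12.9 in IP, with an LFC of 0.78 ± 0.19 (adjusted p = 0.0026). Lama5 (LFC -0.48, adjusted p = 0.046) lost its call without any of 6 libraries, where its adjusted p lay between 0.067 and 0.18: DTR input replicates 1, 2 and 4 and DTR IP replicates 1, 2 and 3. Its LFC was -0.29 without DTR input replicate 4, and -0.39 to -0.50 without one of the others. Under the block, Itga2 (LFC -0.62, adjusted p = 0.016 in place of 0.13) and Itga9 (LFC 0.28, adjusted p = 0.033 in place of 0.26) passed as well.

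Marker genes of other cell types moved with these comparisons. All 12 macrophage markers, 7 of 8 endothelial, 5 of 6 tested mural, 7 of 8 Schwann cell and 9 of 10 hair cell markers were lower in control IP than in control input. None of the marker genes was at 0. Summed over the list, endothelial markers were 329.8 ± 20.3 CPM in control input and 121 ± 13.4 in control IP (most abundant gene Emcn, 172 and 66.2 CPM), and mural markers 395 ± 29.7 and 145 ± 19.3 CPM (Pdgfrb, 192 and 86.9). Schwann cell markers were 2924 ± 742 and 874 ± 202 CPM (Mbp, 1339 and 355), hair cell markers 676 ± 65.4 and 229 ± 35.5 CPM (Myo6, 323 and 141), and mesenchymal markers 8231 ± 240 and 6093 ± 550 CPM (most abundant Col3a1 in input at 2582 and Lum in IP at 1754), with 4 of 9 mesenchymal genes lower. Other lists moved both ways. Of 8 neuronal markers 4 were lower and 1, Isl1, was higher, and their sum was 904 ± 278 CPM in input and 1295 ± 231 in IP (Isl1, 274 and 998). Greater epithelial ridge and inner phalangeal cell markers were 3 higher and 4 lower of 10, with sums of 20300 ± 3138 and 26330 ± 3161 CPM (Tectb, 9256 and 16510). Organ of Corti supporting cell markers were 3 higher and 3 lower of 9, and of the hair cell markers Atoh1 was higher. In DTR, the lower ones in IP were 11 of 12 macrophage, 8 of 8 endothelial, 4 of 6 mural, 7 of 8 Schwann cell, 8 of 10 hair cell and 1 of 9 mesenchymal markers. Their part in the lower laminin and integrin levels was not tested. Gene length moved with the comparison as well: over the longest class of tested genes (1944 genes) the median LFC was -0.14 in control, and after a length correction 22 members still passed (2 higher and 20 lower), with Lama5 no longer among them (adjusted p = 0.076).

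Damage was then compared within IP, between damaged and control cochleae. Markers of other cell types were still counted in control IP, such as macrophage (32.1 ± 5.58 summed CPM) and Schwann cell markers (874 ± 202). RNA of GLAST-Cre+ cells and RNA of other cells in IP cannot be told apart. In DTR IP, Itgb6, Lamb3, Itgb5 and Itga6 were among the members that were lower, and the laminin chains Lama5, Lama2, Lama4 and Lamb1 were among those that were higher. Of 34 members, 12 passed (35.3%), 7 higher and 5 lower, against 15.7% of all tested genes (8.44% higher and 7.3% lower), and the members' median LFC was 0.17 against -0.0043 over all genes. The split by direction rested on single libraries: it was 5 higher and 8 lower without control IP replicate 4, 4 higher and 5 lower without control IP replicate 3, and 5 higher and 4 lower without DTR IP replicate 1. In edgeR it was 5 higher and 6 lower. With the length correction it was 7 higher and 6 lower, with Lama4 no longer among the higher ones. Gene length moved with this comparison too: over the longest class of tested genes (1944 genes) the median LFC was 0.12. Lama2, Lama4, Lama5 and Lamb1 belong to that class. The part of gene length in the members' median LFC was not tested. After quantile normalization, libraries of the 2 groups did not overlap for 14 members, against 16.5% of all genes. These include Itga6, whose deposited CPM did overlap. The other members that were higher were Itgae, Itga2b and Itga10, of which Itgae was tested only because it is high in the DTR groups. Itgb6 and Lamb3 also met the study's damage criteria (LFC of at least 1 in size and separation above 1.5), which 2.47% of genes met in either direction (1.12% higher and 1.34% lower). Without quantile normalization Lamb3 no longer met them, with a separation of 1.49 on the deposited CPM.

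Itgb6 and Lamb3 fell most. Itgb6 was 67.1, 81.2, 94.3 and 80.7 CPM in control IP and 38.4, 41.1, 26.9 and 43.1 in DTR IP. The highest DTR library stood well below the lowest control library, with an LFC of -1.16 ± 0.18 (adjusted p = 0.00018), which is 2.23-fold lower. Lamb3, the beta chain of the epithelial laminin that anchors hemidesmosomes, was 18.5, 23.7, 15.4 and 29.6 CPM in control IP and 9.74, 10.4, 5.43 and 9.73 in DTR IP. Again no library overlapped, with replicate 3 the lowest in DTR, and the LFC was -1.28 ± 0.28 (adjusted p = 0.0034). In input, Itgb6 was 54.4, 62.4, 95.5 and 76.4 CPM in control and 30.2, 37.4, 40.5 and 46.9 in DTR, also without overlap (LFC -0.86 ± 0.18, adjusted p = 0.0032). Lamb3 in input was 14.4, 19.3, 30.3 and 25.6 CPM in control and 7.59, 11.2, 13.2 and 15.7 in DTR. Here the highest DTR library lay above the lowest control library, and the LFC of -0.91 ± 0.28 passed narrowly (adjusted p = 0.037). It did not pass without control input replicate 2, 3 or 4 (adjusted p = 0.053, 0.13 and 0.11) or DTR input replicate 1 or 2 (adjusted p = 0.15 and 0.079). The levels of the pair over the 16 libraries had a Pearson r of 0.92, a description over libraries that share pools and groups.

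**Figure D4:**
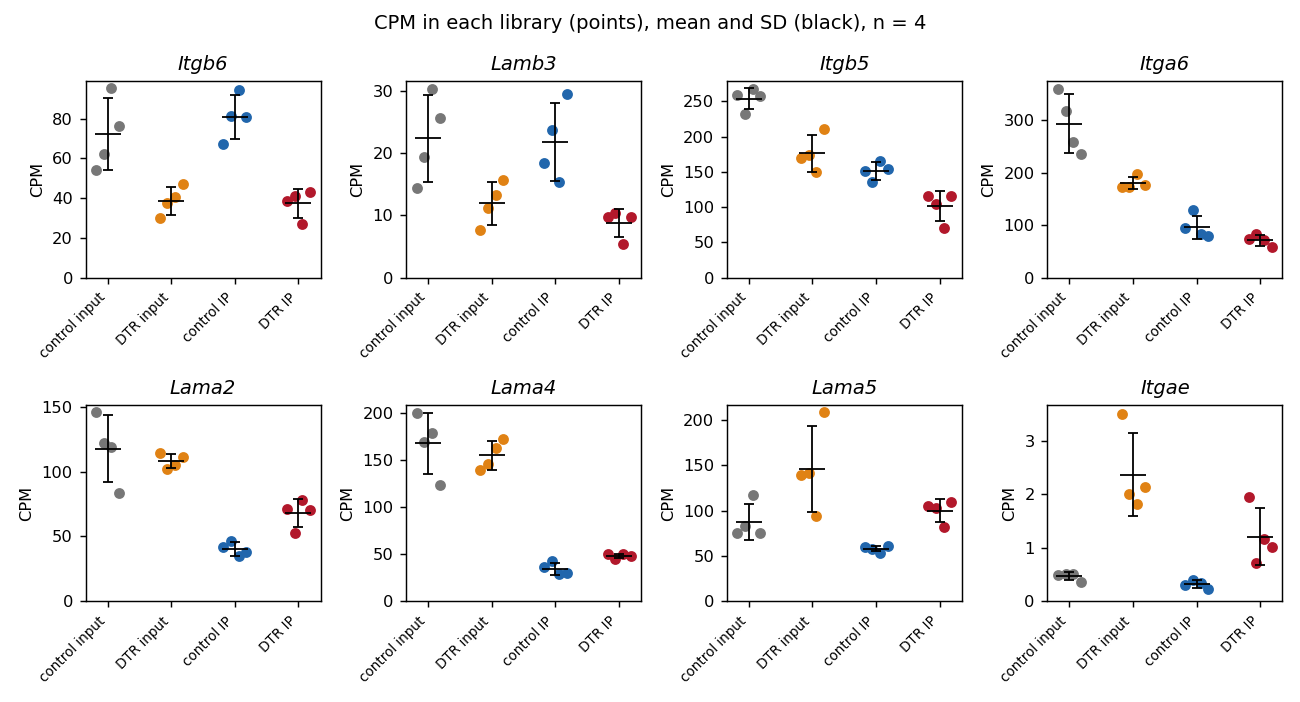
CPM of 8 members in each library (points) of control input, DTR input, control IP and DTR IP, with mean and SD (black), n = 4, each axis starting at 0. Itgb6 lies between 67.1 and 94.3 in control IP and between 26.9 and 43.1 in DTR IP, and Lama2 lies between 35.0 and 46.8 in control IP and between 52.7 and 77.9 in DTR IP.

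The start regions of this pair that fell together are shown beside that of Lama5, which rose, from RefSeq (GRCm38.p6), 250 bases before to 50 bases after the annotated start. Capitals mark matches to the GC box GGGCGG, searched on both strands. Itgb6 lies on chromosome 2 on the minus strand, Lamb3 on chromosome 1 on the plus strand and Lama5 on chromosome 2 on the minus strand.
Itgb6, chr2:60722554-60722853: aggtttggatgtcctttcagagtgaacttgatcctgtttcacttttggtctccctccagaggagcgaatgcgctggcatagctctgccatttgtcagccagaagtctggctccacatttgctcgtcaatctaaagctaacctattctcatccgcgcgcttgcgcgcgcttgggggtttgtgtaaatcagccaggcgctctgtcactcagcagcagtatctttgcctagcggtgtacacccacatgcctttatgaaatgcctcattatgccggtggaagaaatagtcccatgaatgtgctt
Lamb3, chr1:193301744-193302043: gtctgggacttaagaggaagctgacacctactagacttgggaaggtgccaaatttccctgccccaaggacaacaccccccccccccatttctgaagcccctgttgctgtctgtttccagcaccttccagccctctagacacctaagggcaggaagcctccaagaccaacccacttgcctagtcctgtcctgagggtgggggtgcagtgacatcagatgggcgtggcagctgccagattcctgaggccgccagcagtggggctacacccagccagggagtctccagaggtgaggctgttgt
Lama5, chr2:180225810-180226109: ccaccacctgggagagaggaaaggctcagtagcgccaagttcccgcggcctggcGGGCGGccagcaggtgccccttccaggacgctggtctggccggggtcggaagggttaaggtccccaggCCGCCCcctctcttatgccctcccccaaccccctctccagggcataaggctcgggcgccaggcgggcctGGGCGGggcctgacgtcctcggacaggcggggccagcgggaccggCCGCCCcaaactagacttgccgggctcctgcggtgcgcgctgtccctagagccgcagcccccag

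The window of Lama5 held 4 GC boxes and 24 CG dinucleotides at a GC content of 72.7%, while those of Itgb6 and Lamb3 held none of these boxes and 12 and 2 CG dinucleotides at 50.3% and 59.3%. A GC box was found in 35.7% of the 32851 promoters in the table and in 11 of the 23 members that have one there. Counts of GC boxes varied within both directions: Itgb5, which also fell in DTR IP, held 3, while among members that rose Lamb1 held 2, Lama2 held 1 and Itga10 and Itga2b held 0. A second start region is listed for Itgb6 and for Lamb3 and is not shown. Neither strand of the 3 windows shown held the AP-1 letters TGANTCA, which are in 7.81% of all promoters and in 3 members. The same was true of the TEAD letters GGAATG, found in 14.7% of promoters and in 3 members, Itga10, Itgb1 and Lamb3. The match of Lamb3 was in its other start region, chr1:193301993-193302292, at position -167 from that start. The TATA letters TATAAA, in 13.6% of promoters, were in none of the members. None of the marked matches overlapped another.

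Itgb5 and Itga6 also fell in IP. Lama3, an alpha chain of epithelial laminin, was at most 1.64 CPM in every library, with an LFC of 0.20 in IP (adjusted p = 0.66). Itgb5 was 151, 136, 166 and 154 CPM in control IP and 115, 105, 70.1 and 116 in DTR IP, all lower than control, with an LFC of -0.60 ± 0.14 (adjusted p = 0.0060). It was also lower in input (LFC -0.50 ± 0.14, adjusted p = 0.024), a call lost without control input replicate 1, 3 or 4 or DTR input replicate 1, 2 or 3 (adjusted p between 0.055 and 0.079). Itga6 was 93.7, 128, 82.4 and 78.7 CPM in control IP and 73.3, 82.8, 71.0 and 57.9 in DTR IP. Its LFC of -0.43 ± 0.14 was at the edge of the threshold (adjusted p = 0.048) and rose past it on leaving out control IP replicate 1 or 2 or DTR IP replicate 1, 3 or 4 (adjusted p = 0.081, 0.16, 0.087, 0.078 and 0.13) or without quantile normalization (adjusted p = 0.082). In input, Itga6 was 172 to 197 CPM in DTR against 236 to 359 in control, with an LFC of -0.65 ± 0.14 (adjusted p = 0.0043). Its partner Itgb4, the hemidesmosome subunit, had LFCs of -0.22 in IP and -0.27 in input and passed in neither (adjusted p = 0.31 and 0.24).

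Among the members that rose in IP were the laminin chains Lama2, Lama4, Lama5 and Lamb1. Lama2 was 42.0, 46.8, 35.0 and 38.0 CPM in control IP and 71.5, 52.7, 77.9 and 70.4 in DTR IP. All DTR libraries were higher than all control libraries, with an LFC of 0.72 ± 0.14 (adjusted p = 0.0018). In input its LFC was -0.09 ± 0.14 (adjusted p = 0.78), at 83.7 to 146 CPM in control and 102 to 114 in DTR. Lama5 was 59.8, 58.1, 53.8 and 61.0 CPM in control IP and 106, 103, 82.3 and 109.9 in DTR IP. It rose without overlap, with an LFC of 0.77 ± 0.18 (adjusted p = 0.0070), and in input, where the libraries overlapped, with an LFC of 0.70 ± 0.18 (adjusted p = 0.016). The input call was lost without control input replicate 1 or 4 or DTR input replicate 4 (adjusted p = 0.058, 0.056 and 0.055). Lama4 was 29.4 to 42.9 CPM in control IP and 44.8 to 50.5 in DTR IP (LFC 0.46 ± 0.13, adjusted p = 0.021), and Lamb1 was 112 to 163 and 165 to 204 CPM (LFC 0.43 ± 0.13, adjusted p = 0.024). Neither group pair overlapped, but the Lama4 call was lost without control IP replicate 3 or 4 (adjusted p = 0.078 and 0.051). The Lamb1 call was lost without control IP replicate 3 or 4 or DTR IP replicate 1 or 2 (adjusted p = 0.098, 0.060, 0.080 and 0.055). In the count tests Lamb1 did not pass (adjusted p = 0.11 in edgeR and 0.083 in DESeq2), and Lama4 passed neither in edgeR (adjusted p = 0.057) nor with the length correction (adjusted p = 0.052). Lamc1 had an LFC of 0.38 ± 0.15 that did not pass (adjusted p = 0.092). Over the 16 libraries, Lama4 and Lamb1 had a Pearson r of 0.986 and Lama4 and Lamc1 of 0.973, again a description only.

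Itga10 and Itga2b were also higher in DTR IP. Of the 4 collagen receptor subunits Itga10 alone passed, while Itga1 had an LFC of 0.43 (adjusted p = 0.16) and Itga2 of -0.54 (adjusted p = 0.29). Itga10 was 4.47 to 10.2 CPM in control IP and 11.2 to 12.9 in DTR IP (LFC 0.61 ± 0.19, adjusted p = 0.031). That call was lost without control IP replicate 3 or 4 or DTR IP replicate 1, 3 or 4 (adjusted p = 0.12, 0.052, 0.066, 0.054 and 0.063) and in edgeR (adjusted p = 0.058). Itga11, another collagen receptor subunit of mesenchymal cells, had an LFC of 0.50 ± 0.17 (adjusted p = 0.052, and 0.012 with the replicate block). Itga2b, the alpha subunit of the platelet fibrinogen receptor, was 4.73, 6.14, 4.47 and 4.22 CPM in control IP and 9.13, 7.65, 8.25 and 8.45 in DTR IP. All DTR libraries were higher, with an LFC of 0.61 ± 0.16 (adjusted p = 0.015). In input it was 3.55, 5.83, 5.15 and 4.32 CPM in control and 8.86, 9.52, 6.51 and 10.3 in DTR, again without overlap (LFC 0.80 ± 0.16, adjusted p = 0.0026). Beside these values, the platelet gene Pf4 was 11.1 ± 0.267 CPM in control input and 12.7 ± 1.89 in DTR input, and the platelet markers summed to 15.3 ± 0.652 and 16.4 ± 2.10 CPM in these groups. In IP, Pf4 was 2.23 ± 0.966 CPM in control and 4.10 ± 1.005 in DTR (LFC 0.65, adjusted p = 0.037), the 1 of 2 tested platelet markers that was higher, and the markers summed to 6.84 ± 1.38 and 8.74 ± 2.12 CPM. The part of platelets in the Itga2b change was not tested. Itgb3, the beta partner of Itga2b, had an LFC of -0.62 ± 0.27 in IP and -0.76 ± 0.27 in input (adjusted p = 0.13 and 0.073). It passed with the replicate block (adjusted p = 0.0030 and 0.00065), without control IP replicate 4 in IP (adjusted p = 0.035) and without DTR input replicate 1 or in DESeq2 in input (adjusted p = 0.040 and 0.025).

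In input, 8 of 34 members passed between DTR and control (23.5%), 3 higher (Itgae, Itga2b and Lama5) and 5 lower (Lamc3, Lamb3, Itgb6, Itga6 and Itgb5), against 12.4% of all tested genes (7.17% higher and 5.21% lower). The 5 lower ones were 3 without control input replicate 3 or 4 or DTR input replicate 2. They were also 3 without the filter on low values, but 8 with the replicate block and 8 in DESeq2. Libraries did not overlap for 8 members, against 19.5% of all genes. The median LFC was -0.18, against -0.021 over all genes. Lamc3 was 30.7, 17.99, 29.1 and 25.4 CPM in control input and 16.7, 13.9, 5.82 and 13.3 in DTR input. Every DTR library was lower, with an LFC of -1.12 ± 0.27 (adjusted p = 0.0083). In IP, Lamc3 was 3.67 to 3.96 CPM in control and 2.85 to 6.72 in DTR, and its LFC was -0.02 (adjusted p = 0.98). Lamc3 overlaps the exons of Gm13441 on the opposite strand. Itgb8 (LFC -0.81, adjusted p = 0.12) and Itga9 (LFC -0.51, adjusted p = 0.092), the latter a subunit that binds tenascin C and osteopontin with Itgb1, passed with the replicate block (adjusted p = 0.038 and 0.0050). Itgb8 also passed with the compared groups alone (adjusted p = 0.026) and Itga9 in DESeq2 (adjusted p = 0.047). In IP, Itgb8 had an LFC of -0.61 that did not pass (adjusted p = 0.22). Without control IP replicate 4 that LFC was -0.99 and passed (adjusted p = 0.015). Itga8 in IP (LFC -0.45, adjusted p = 0.054) passed with the block (adjusted p = 0.027), in edgeR (adjusted p = 0.033) and DESeq2 (adjusted p = 0.013), and without control IP replicate 4 or DTR IP replicate 2 (adjusted p = 0.016 and 0.012).

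Itgae had the largest rise in input and was the only member there past the damage criteria that the study set for IP, which 2.34% of genes met in either direction and 1.34% in the higher one. It encodes the alpha subunit that pairs with Itgb7 on intraepithelial lymphocytes and some dendritic cells and binds E-cadherin. It was 0.5004, 0.507, 0.508 and 0.362 CPM in control input and 3.52, 2.01, 1.81 and 2.13 in DTR input. The lowest DTR library stood far above the highest control library, with an LFC of 1.36 ± 0.20 (adjusted p = 8.2e-05). Itgae reached the filter on low values through the DTR groups alone, and its separation is measured against the floor of 1.08 CPM, above all its control values. In IP it was 0.299, 0.407, 0.353 and 0.229 CPM in control and 1.96, 0.712, 1.16 and 1.02 in DTR, also without overlap (LFC 0.84 ± 0.20, adjusted p = 0.0060). Without the filter its adjusted p was 0.00041 in input and 0.015 in IP. Haspin, a kinase gene of cell division listed as Gsg2 in these data, lies within Itgae on the opposite strand without sharing exons in GENCODE M21. Gsg2 was 3.01 ± 0.888 CPM in control input and 4.89 ± 0.449 in DTR input, and its part in the Itgae counts was not tested. Itgb7 had LFCs of 0.17 in input and 0.10 in IP and passed in neither (adjusted p = 0.78 and 0.85).

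The other leukocyte subunits were scarce. Itgax, of dendritic cells and macrophages, had 0 reads in all 4 control input libraries and 4 to 18 in each DTR input library. In IP it had 0 to 2 reads in control and 0 to 15 in DTR. Itgad had 0 or 1 read in control input and 4 to 7 in DTR input, 0 in control IP and 0 to 9 in DTR IP. Itgam, the alpha subunit of myeloid cells, had 12 to 19 and 13 to 27 reads in control and DTR input, and 5 to 14 and 4 to 35 in IP, under its first identifier. It had 0 reads in all 16 libraries under the second, which shares exons with the first. At this depth, 3 reads corresponded to 0.0715 to 0.107 CPM, a limit that covers counting error only. Itgb2 and Itgal were tested and passed in neither damage comparison (Itgb2 LFC 0.44 in IP and 0.50 in input, adjusted p = 0.51 and 0.50, and Itgal LFC -0.15 and 0.08, adjusted p = 0.73 and 0.89).

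Macrophage markers moved in the same comparisons. Of the 12 markers, 9 were higher in DTR input and 9 in DTR IP. Their summed CPM was 162, 157, 155 and 157 in control input and 336, 228, 297 and 362 in DTR input, and 37.7, 35.5, 29.9 and 25.4 in control IP and 97.8, 60.1, 82.9 and 92.6 in DTR IP. No library of DTR overlapped with control in either, and none of the 12 genes was at 0 in a group. The most abundant marker was Csf1r in control input (36.6 CPM), Lyz2 in DTR input (54.0 CPM) and C1qc in control IP and DTR IP (5.33 and 14.8 CPM), while Ptprc, the leukocyte common antigen, was 2.32 ± 0.494 and 3.65 ± 0.321 CPM in input (adjusted p = 0.30). In DTR IP, 3 of 8 endothelial, 1 of 6 mural and 5 of 9 mesenchymal markers were also higher than in control IP, beside the higher Lama2, Lama4 and Lamb1. Summed endothelial markers were 181 ± 5.96 CPM in DTR IP against 121 ± 13.4 in control IP, and summed mesenchymal markers 7779 ± 596 against 6093 ± 550. Of 9 organ of Corti supporting cell markers, 8 fell in IP and 9 in input, beside the lower Itgb6, Lamb3, Itgb5 and Itga6, and they summed to 1262 ± 104.7 CPM in control input, 551 ± 51.6 in DTR input, 1515 ± 89.9 in control IP and 496 ± 66.0 in DTR IP. Greater epithelial ridge and inner phalangeal cell markers were 4 lower and none higher of 10 in DTR IP and 2 lower and 2 higher in DTR input, with sums of 26330 ± 3161 CPM in control IP and 18250 ± 1791 in DTR IP (Tectb, 16510 and 9289). Of 8 Schwann cell markers, 6 were lower in DTR input and 2 in DTR IP, beside the lower Lamc3 and Itga6 in input, and they summed to 2924 ± 742 CPM in control input and 1262 ± 186 in DTR input (Mbp, 1339 and 502). Of 8 neuronal markers 2 were lower in either comparison, and of 10 hair cell markers 3 were higher and 1 lower in DTR IP. The part of these cell types in the integrin and laminin changes was not tested.

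**Figure D5:**
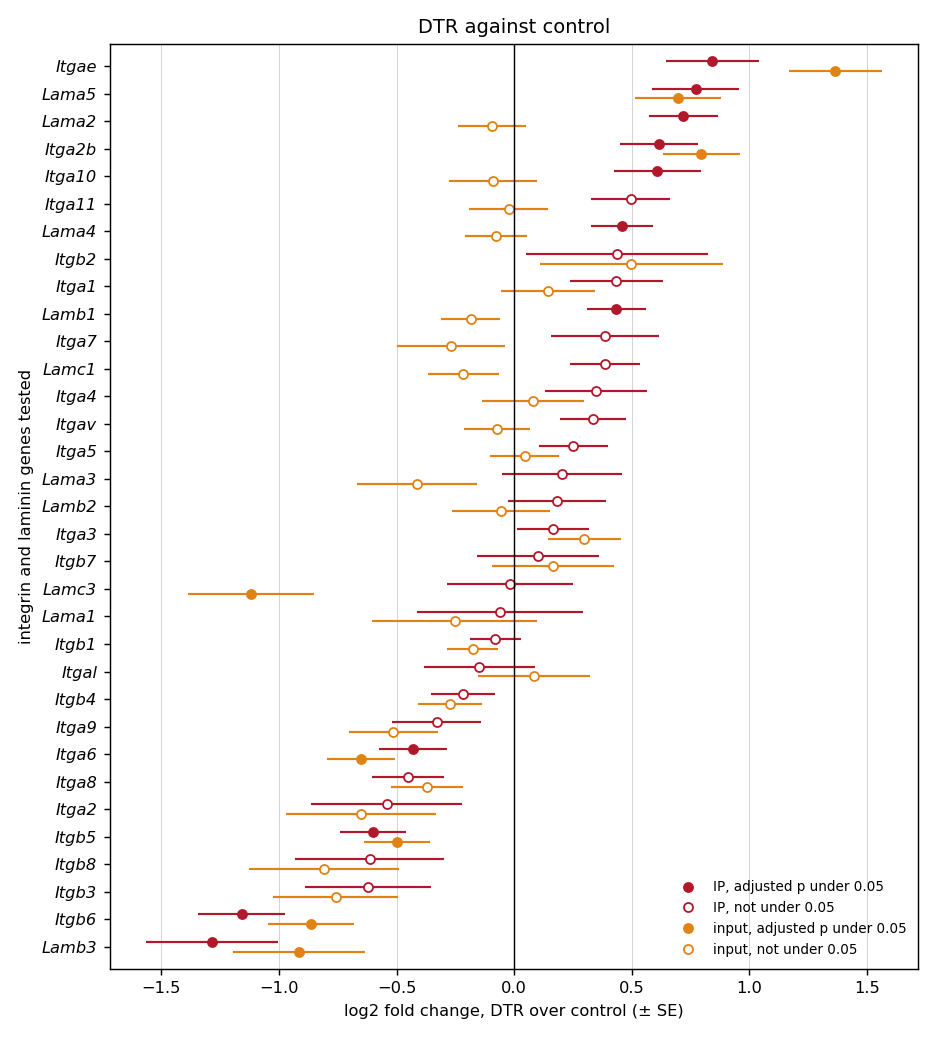
LFC of DTR over control (± SE) for 33 of the 34 members tested, in IP (red) and input (orange), with filled points for an adjusted p under 0.05. Itgb6 (-1.16) and Lamb3 (-1.28) lie far left in IP, Itgae lies far right in input (1.36), and Lama2 is at 0.72 in IP and -0.09 in input.

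Whether damage changed a member differently in IP than in input was tested as an interaction. None of the 34 passed in limma, against 0.0118% of all tested genes (2 genes), while 8 members had an unadjusted p under 0.05, as did 870 of the 16994 tested genes. DESeq2 on the recovered reads called 1 of them, Lama2 (adjusted p = 0.045), and edgeR called none. On simulated interactions 15.9% of the genes DESeq2 called were false, against 3.05% for limma and 2.92% for edgeR. In limma the difference for Lama2 was 0.81 ± 0.20 on the log2 scale (adjusted p = 0.28, and 0.076 with the replicate block), for Lamb1 0.62 ± 0.18 (adjusted p = 0.45) and for Lamc3 1.10 ± 0.38 (adjusted p = 0.65). Over the longest class of tested genes, which holds Lama2 and Lamb1, the median difference was 0.092. On simulated data of this size, limma recovered 42% of genes with a true 2-fold interaction and 85% of those with a 4-fold one. Differences of this size between IP and input can thus be missed at this depth and number of replicates.

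Among the molecules that work with integrins and laminins, the basement membrane partners were lower in IP as a group. Of 14, 13 were lower and none higher in control IP, against 20.7% of all tested genes lower, led by the laminin-binding nidogen Nid2 (LFC -1.88), the collagen IV chain Col4a1 (LFC -1.66) and the laminin receptor dystroglycan Dag1 (LFC -1.40). In DTR IP 10 of 14 were lower than in DTR input, against 20.5% of all genes, again with Dag1 (LFC -1.37) and Nid2 (LFC -1.29) foremost. After damage, 4 rose and 1 fell in IP, where 8.44% of all genes rose and 7.3% fell, with Col4a2 (LFC 0.82, adjusted p = 0.00024), Col4a1 (LFC 0.80, adjusted p = 0.00028) and Nid1 (LFC 0.66, adjusted p = 0.00085) rising. In input, where 7.17% of all genes rose and 5.21% fell, none rose and 2 fell, Col4a4 (LFC -0.65, adjusted p = 0.019) and Dag1 (LFC -0.38, adjusted p = 0.033). The median LFC of the 14 was -1.09 for control IP against input, 0.067 for damage in IP and -0.085 for damage in input. Beside them, 7 of 8 endothelial, 5 of 6 tested mural, 7 of 8 Schwann cell and 4 of 9 mesenchymal markers were lower in control IP. With damage in IP, 3 of 8 endothelial, 1 of 6 mural and 5 of 9 mesenchymal markers rose, and 2 of 8 Schwann cell markers fell. The part of these cell types in the changes of the 14 was not tested.

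Other integrin ligands changed in both directions. Of 21 tested, 6 rose and 4 fell with damage in IP (8.44% and 7.3% of all tested genes), and 4 rose and 4 fell in input (7.17% and 5.21% of all). Madcam1, the counter-receptor of the Itga4 and Itgb7 pair on gut endothelium, was 0.134 ± 0.0689 CPM in control input and 31.3 ± 3.75 in DTR input, and 0.118 ± 0.118 in control IP and 20.8 ± 2.48 in DTR IP. Its LFCs of 5.60 and 5.05 (adjusted p = 2.7e-13 and 8.7e-13) were given by a gene that reached the filter on low values through the DTR groups alone, and without the filter its adjusted p was 2.4e-10 in input and 3.6e-10 in IP, while Itga4 itself had LFCs of 0.08 in input and 0.35 in IP (adjusted p = 0.88 and 0.32). Egfl6, a matrix ligand of the Itga8 and Itgb1 pair, was 38.5 ± 5.45 CPM in control IP and 3.77 ± 0.550 in DTR IP, and it fell in IP (LFC -3.22, adjusted p = 1.2e-11) and in input (LFC -2.52, adjusted p = 2.1e-10). Icam1, the counter-receptor of Itgal and Itgb2, rose in both (LFC 1.38 in IP and 1.66 in input, adjusted p = 4.6e-06 and 4.3e-07). Between IP and input in control, 2 ligands were higher and 8 lower (19.3% and 20.7% of all genes), among them Spp1 (osteopontin, LFC -2.50), Tnc (tenascin C, LFC -1.94) and Fbln2 (LFC -1.72). In DTR 1 was higher and 9 lower (18.6% and 20.5% of all genes).

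Of 25 adhesion adaptors and kinases tested, 8 rose and 1 fell with damage in IP (8.44% and 7.3% of all tested genes), and 4 rose and 1 fell in input (7.17% and 5.21% of all). Fermt3, the kindlin of blood cells that activates integrins, had LFCs of 2.12 in IP and 1.74 in input (adjusted p = 6.0e-06 and 6.2e-05), and was 1.64 ± 0.797 CPM in control IP and 9.32 ± 2.85 in DTR IP. Fermt1, the kindlin of epithelia, was the adaptor that fell, with LFCs of -1.11 and -1.03 (adjusted p = 0.0020 and 0.0044). Lims2, an adaptor of the complex around integrin-linked kinase, rose by 1.18 and 0.95 (adjusted p = 0.00024 and 0.0021). Between IP and input, 4 adaptors were higher and 10 lower in control (19.3% and 20.7% of all genes) and 4 higher and 12 lower in DTR (18.6% and 20.5%), with the actin linkers Vcl (LFC -1.91 and -1.92) and Flna (LFC -1.56 and -1.06) lower in both. Of the 4 hemidesmosome partners, Plec, a plakin that ties Itgb4 to keratin, was higher in IP in control (LFC 0.66, adjusted p = 0.0023) and in DTR (LFC 1.29, adjusted p = 4.3e-06). In DTR the related plakin Dst was higher in IP too (LFC 0.61, adjusted p = 0.0079), and the transmembrane collagen Col17a1 was lower (LFC -0.61, adjusted p = 0.025). None of the 4 passed in either damage comparison.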

How the data were processed

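RNA was measured in 16 libraries of mouse cochlea, which the labels place in 4 groups of 4 (input and IP, control and DTR). The authors' deposited values are CPM. Their methods describe alignment to GRCm38 with HISAT2 (version 2.0.4) and counting with HTSeq, while the submitters' processing notes name TopHat. The annotation release and the strand setting are not given in the sources used here, so reads of overlapping or antisense genes could not be told apart. Beside Itga7, Lamc3, Itgam and Itgad, these members share exons with another gene in GENCODE M21: Itga1, Itga4, Itga8, Itga10, Itgav, Itgb4, Lama2 and Lama3. Every library summed to 1000000 CPM, and 100% of values were whole multiples of the value of 1 read (tolerance 0.02 reads), so read counts were recovered. Of 50316 genes listed, 2587 were NA in every library.

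The deposited CPM were quantile normalized, log2 transformed with a pseudocount of 0.5 and filtered to genes that reached 0.5 CPM in every replicate of 1 or more groups, which left 16994. limma (version 3.58.1, R 4.3.3) fitted group means over all 16 libraries with a mean-variance trend. Tests were two-sided with Benjamini-Hochberg adjustment over all tested genes, and a gene passed at an adjusted p under 0.05. Separation divides the lowest library of the higher group by the highest library of the lower group, after raising values to the 10th percentile over tested genes, 1.08 CPM. Exon lengths and overlaps came from GENCODE M21 and promoters from RefSeq (GRCm38.p6).

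The input and IP of a number come from the same pool according to the study's methods. For control and DTR, deviations from the group mean correlated between libraries of the same number (r of 0.31 to 0.56 in IP and 0.29 to 0.44 in input), so the numbers were taken to pair the samples, and the blocked value is given where it changes a call. The main p-values rest on the spread between libraries within a group, with the 16 libraries taken as independent. Each pool gave both an input and an IP library, and this pairing enters only with the block.

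Members, gene lists and tests were chosen with earlier results of these data known. Named in full were, per comparison, up to 8 passing members with an LFC of at least 1 in size (with fewer than 4, the 4 with the smallest adjusted p), the most abundant member of each class, up to 3 passing genes of each other list, and Lgr5 and Slc1a3. Other members were described after their values were seen, to account for all of them.

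The alternatives were CPM without quantile normalization or centred on the library median, pseudocounts of 0.1 and 1, no filter or at least 2 CPM, the compared groups alone, the replicate block, a length correction, both together, leaving out 1 library at a time, and tests of the recovered counts with DESeq2 (version 1.42.0) and edgeR (version 4.0.16). On simulated data for DTR IP against control IP (16848 genes, 200 changed), limma recovered 77% of 2-fold and 96% of 4-fold changes with 4.95% false calls. DESeq2 recovered 81% and 96% with 13.7% false calls, and edgeR 76% and 96% with 3.37%. Values of 1 member gene are left out of the text, while the member counts include it. Start regions were found for 23 of 37 member symbols. Figures were drawn with matplotlib (version 3.10.9).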

Additional observations from a re-analysis of the deposited data

Results flagged for a closer look

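In 5 of 60 groups of 4 libraries, over 15 members described in full, 1 library stood apart from the other 3 by Dixon's criterion, where chance gives about 1 in 20. In DTR input, Itga6 was 196.9 CPM in replicate 3 against 172.4 to 176.5 in the others, and Lama1 was 2.009 CPM in replicate 1 against 1.858 to 1.864. In control input, Itgae was 0.3622 CPM in replicate 4 against 0.5004 to 0.5078. In control IP, Lamc1 was 144.4 CPM in replicate 3 against 175.1 to 180, and in DTR IP, Lamb3 was 5.433 CPM in replicate 3 against 9.733 to 10.36.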

How the results depend on the processing

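Counts of members that passed were 23 for control IP against control input, 23 for DTR IP against DTR input, 12 for damage in IP, 8 for damage in input and 0 for the interaction. Leaving out 1 library gave 20 to 22, 22 to 23, 9 to 13, 5 to 7 and 0, with the 5 obtained without control input replicate 4. With the replicate block they were 26, 25, 15, 11 and 0, and no call was lost. DESeq2 called 1 interaction. Members past the full criteria (size and separation, and for IP against input also the mean) numbered 1, 0, 2 and 1 in the 4 comparisons. They were 3 without the filter for control IP against input, 1 without quantile normalization for damage in IP, where Lamb3 was lost, and 0 with a minimum of 2 CPM and 0 with the compared groups alone for damage in input. With each library left out they were 1, 0, 2 and 1 to 2, with the 2 obtained without control input replicate 2. With the adjusted p alone they were 23, 23, 12 and 8. The causes were not tested.

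For the genes that the naming rule picked, those of the other lists included, 834 values under other settings kept direction and side of the threshold, 12 no longer passed and 2 passed in addition. With a library left out the numbers were 550, 17 and 1. Over all 34 members, 14 of the 66 calls in the 4 comparisons were lost without 1 or more libraries (54 of 528 values), none changed direction, and 9 other calls were gained (12 values). The interaction was not run with the compared groups alone, since it needs all 4. In the settings not named here, these counts stayed within 1.5 times those given first. Itgad, Itgam and Itgax had at most 35 reads in any library. Itgam and Itgad also share exons with other genes, and the parts of depth and of shared exons in these low counts were not tested.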
